A study of Mus musculus with 2 samples.

Results

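The 10 genes followed here are active in γδ T cells that produce interleukin-17 (IL-17): the cytokines Il17a and Il17f, the cytokine receptors Il23r, Il1r1, Il18r1 and Il17re, the chemokine receptors Ccr6 and Ccr2, and the membrane proteins Tmem176a and Tmem176b. The list was made with earlier results of these data known, and its genes were matched by symbol. All 10 were found among the 31053 genes measured, each as 1 entry. Their unique molecular identifiers (UMIs, each standing for 1 captured RNA molecule) were counted by library, by the γ chain variable (V) segment of each cell barcode, and by whether the barcode held a UMI of Maf, a transcription factor of this lineage.

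The cells came from thymic lobes of wild-type C57BL/6 mouse embryos at embryonic day 15, kept for 2 days in culture with no treatment. CD24-positive γδ T cells, the immature stage of the lineage, were stained with TMRE, a mitochondrial dye that reads membrane potential. The brightly stained cells (TMREhi) and the dimly stained ones (TMRElo) were sorted apart. Each fraction gave 1 droplet library of 5′ RNA ends, so the 2 libraries share genotype, age and culture and differ in the sort. The labels do not say how many embryos were pooled, and with 1 library per fraction no test between them was possible.

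IL-17-producing γδ cells acquire their effector fate in the fetal thymus, before they meet antigen. Cells using the Vγ6 segment arise early in fetal life and are largely committed to IL-17, while Vγ4 cells hold both IL-17 and other fates and many Vγ1 cells go on to make interferon-γ or IL-4. The transcription factor c-Maf is needed for the programme, and IL-23, IL-1 and IL-18 trigger cytokine release in mature cells through the receptors followed here. CCR6 and CCR2 guide the cells to skin, mucosa and inflamed tissue.

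In GENCODE vM21 on GRCm38, Il17a (chr1:20730905-20734496, plus strand) and Il17f (chr1:20777146-20790617, minus strand) were neighbours 42649 bases apart with no coding gene between them. Il1r1 (chr1:40225080-40317257, plus) and Il18r1 (chr1:40465552-40500854, plus) lay 148294 bases apart in the cluster of IL-1 receptor genes. Il23r (chr6:67422932-67491855, minus) and Il17re (chr6:113458484-113470758, plus) shared chromosome 6 with Tmem176a (chr6:48840919-48847071, plus) and Tmem176b (chr6:48833818-48841496, minus). Ccr6 (chr17:8236043-8257141, plus) and Ccr2 (chr9:124101950-124113557, plus) stood alone. Tmem176a and Tmem176b overlap by 578 bases, exons included, on opposite strands. Whether the counting used strand is not given in the sources used here, so reads of that overlap may have been assigned to either gene.

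The promoters were searched on both strands for AGGTCA, the half-site bound by many nuclear receptors, and for TGCTGA, the half-site bound by MAF proteins. The search covered the 250 bases before each RefSeq start (GRCm38.p6), and all 10 genes matched this table. The 10 genes have 17 windows there, since a gene can have several starts. AGGTCA was found in 4 of the 17 windows (23.5%; Il17a, Il17f, Il23r and Ccr6) and in 14.0% of all 32851 windows. TGCTGA was found in 4 of the 17 (23.5%; Il17a, Il23r, Il1r1 and Ccr6) and in 16.1% of all windows. Both were found in 3 of the 17 (17.6%) and in 2.63% of all windows. These 3 are shown because they hold both motifs, so the display was selected on the matches. Capitals mark the motifs in either orientation (AGGTCA on the opposite strand reads TGACCT), and in Il17a the pair overlaps. A match is a run of letters and not evidence of binding.
Il17a, chr1:20730655-20730904, plus strand: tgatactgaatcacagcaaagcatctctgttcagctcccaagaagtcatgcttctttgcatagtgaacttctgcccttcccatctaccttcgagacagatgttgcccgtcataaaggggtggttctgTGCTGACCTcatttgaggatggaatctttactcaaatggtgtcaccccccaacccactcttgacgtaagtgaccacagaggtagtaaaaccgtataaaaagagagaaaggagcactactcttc
Il23r, chr6:67491856-67492105, minus strand: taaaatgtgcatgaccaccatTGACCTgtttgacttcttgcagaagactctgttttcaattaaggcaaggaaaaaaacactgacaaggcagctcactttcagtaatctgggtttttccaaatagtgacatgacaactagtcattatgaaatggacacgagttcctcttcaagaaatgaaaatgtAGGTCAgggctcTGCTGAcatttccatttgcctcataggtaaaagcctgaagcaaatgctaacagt
Ccr6, chr17:8235793-8236042, plus strand: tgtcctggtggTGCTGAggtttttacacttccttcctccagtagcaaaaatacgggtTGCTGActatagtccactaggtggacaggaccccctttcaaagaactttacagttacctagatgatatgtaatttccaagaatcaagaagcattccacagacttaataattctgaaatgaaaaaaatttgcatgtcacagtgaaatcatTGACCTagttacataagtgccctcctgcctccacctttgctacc

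Barcodes with at least 500 detected genes were used, 1025 in TMREhi (4235563 UMIs, median 2031 per barcode) and 133 in TMRElo (219352 UMIs, median 1113). The libraries shared no barcode. A level is given in UMIs per 1000000 UMIs (CPM), and 3 UMIs, taken as the floor, stood at 0.708 CPM in TMREhi and at 13.7 CPM in TMRElo. The median share of mitochondrial UMIs was 14.4% and 13.5%, and only 317 and 34 barcodes had at most 10%. A γ V UMI was present in 68.1% of TMREhi and 79.7% of TMRElo barcodes. All 7 γδ T cell markers listed were detected in both libraries, and markers of B cells and erythroid cells were at 0. In TMREhi, 165 barcodes had a Rag1 UMI (a gene of T cells still rearranging receptors) and no γ V UMI. They were taken as the class that should lack the 10 genes and are called the Rag1-positive background here. Their αβ lineage markers, Rag1 among them, summed to 3659 CPM and their γδ T cell markers to 1091 CPM, against 246 and 2537 CPM in barcodes with a γ V UMI. At their median of 1188 UMIs a γ V UMI can be missed, so γδ cells among them cannot be told apart. All intervals are exact at 95% (Poisson for CPM, Clopper-Pearson for shares, conditional binomial for ratios) and cover counting error only.

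The genes of this programme were detected mainly in TMREhi. Together they gave 1714 UMIs in 322 of the 1025 TMREhi barcodes (31.4%) and 11 UMIs in 11 of the 133 TMRElo barcodes (8.27%). The summed level was 405 CPM against 50.1 CPM, a ratio of 8.07 (4.50 to 16.2). Thinned to 1000 UMIs per barcode, which removes the gap in depth and leaves out 159 and 49 barcodes, the share with at least 1 of the genes was 23.2% in TMREhi and 8.33% in TMRElo. In a bulk sum of this kind, more cells of a type and more RNA per cell cannot be told apart.

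The cytokines themselves were rare. Il17a, the founding member of the IL-17 family, had 32 UMIs in 11 TMREhi barcodes (1.07%), or 7.56 CPM. Il17f, its close relative, had 13 UMIs, also in 11 barcodes, or 3.07 CPM. Neither had a UMI in TMRElo, but both TMREhi levels lie below the TMRElo floor, so a difference between the libraries was not detectable at this depth.

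The receptors were found far more widely. Il23r, the specific chain of the IL-23 receptor, had 165 UMIs in 97 TMREhi barcodes (9.46%) and none in TMRElo. It stood at 39.0 CPM, at least 2.85-fold higher when the 0 is set to 3 UMIs (lower 95% limit 2.29). Il1r1, the signalling receptor for IL-1, had 95 UMIs in 69 barcodes (22.4 CPM, at least 1.64-fold higher, lower 95% limit 1.31). Il17re, a receptor chain for IL-17C, had 68 UMIs in 51 barcodes (16.1 CPM), and its bound of 1.17 came with a lower 95% limit of 0.93. The absence of these 3 genes in TMRElo allows a share of up to 2.26% of barcodes with a UMI each, by the limit of 3 counts (exact upper limit 2.74%). Il18r1, the ligand-binding chain of the IL-18 receptor, was the exception, with 142 UMIs in 94 TMREhi barcodes (33.5 CPM) and 5 UMIs in 5 TMRElo barcodes (22.8 CPM). Its ratio of 1.47 had an interval from 0.62 to 4.60, so the libraries were not distinguishable for this receptor.

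Of the homing receptors, Ccr2, which binds CCL2, had 492 UMIs in 185 TMREhi barcodes (18.0%, 116 CPM) and 2 UMIs in TMRElo (9.12 CPM), a ratio of 12.7 (3.51 to 105). Ccr6, the receptor for CCL20, had 30 UMIs in 22 TMREhi barcodes (7.08 CPM) and none in TMRElo, again below the TMRElo floor. Tmem176a had 278 UMIs in 130 TMREhi barcodes (65.6 CPM) and none in TMRElo, at least 4.80-fold higher. Tmem176b, its overlapping partner and like it a protein of intracellular membranes, had 399 UMIs in 159 TMREhi barcodes (94.2 CPM) and 4 UMIs in TMRElo (18.2 CPM), a ratio of 5.17 (2.00 to 19.1).

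Counted by a 2-fold rule over genes with at least 10 UMIs, 4 of the 10 genes were higher in TMREhi (Il23r, Ccr2, Tmem176a and Tmem176b) and 0 were lower. The background was 10.1% of 10652 genes higher and 21.6% lower. None of the 10 genes had 10 UMIs in TMRElo, so each passed this filter through TMREhi alone. Leaving out the 3 under the floor, the genes' median log2 ratio was 1.51, beside -0.35 for all genes. In barcodes with at most 10% mitochondrial UMIs the log2 ratio of the sum was 2.81. However, Il23r, Il1r1 and Il17re then fell under the TMRElo floor, and Tmem176a was at least 2.19-fold higher. Ccr2 rested on 2 TMRElo UMIs: its log2 ratio of 3.67 was 0.81 in barcodes of at least 1000 genes and at most 5% mitochondrial UMIs.

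**Figure D1:**
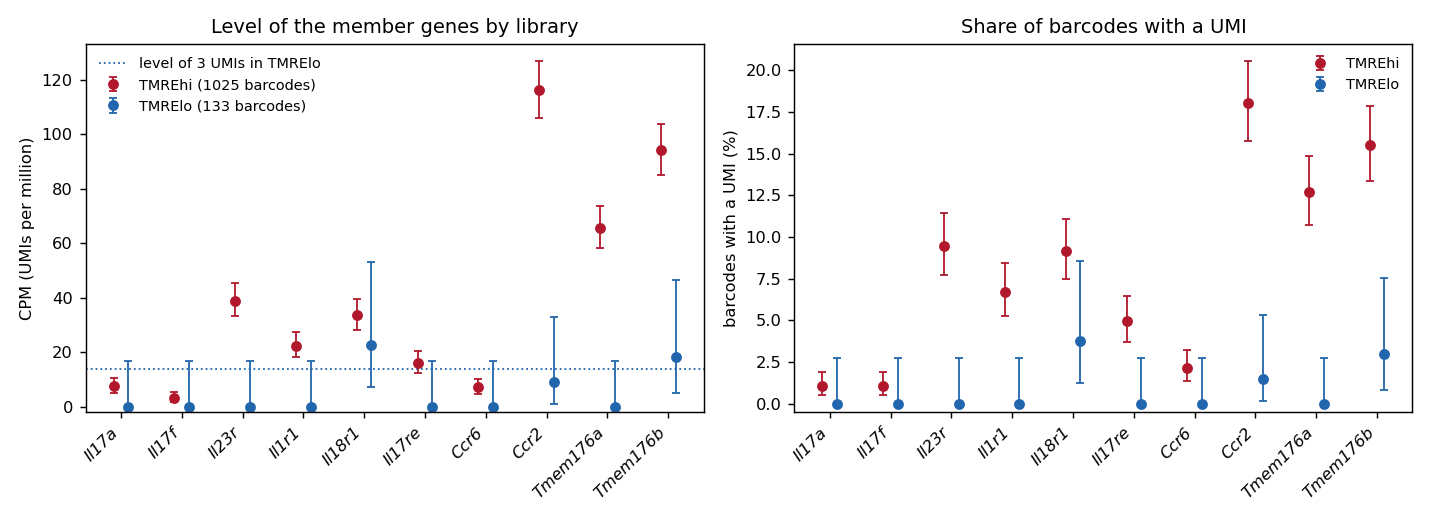
Level in CPM (left) and share of barcodes with a UMI in percent (right) of each of the 10 genes in the TMREhi library (red, 1025 barcodes) and the TMRElo library (blue, 133 barcodes). Points are the library values, bars are exact 95% intervals for counting error, and the dotted line is the level of 3 UMIs in TMRElo; 7 genes had no UMI in TMRElo, while Il18r1 overlapped between the libraries.

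Macrophages and monocytes express Ccr2 and both Tmem176 genes, so their markers were counted beside these values. All 8 markers listed were detected in TMREhi (721 UMIs, 170 CPM) and 1 of 8, Fcgr3, in TMRElo (3 UMIs, 13.7 CPM). The 6 TMREhi barcodes with at least 10 such UMIs held 604 of the 721. They held 45 of the 399 Tmem176b UMIs (11.3%), 20 of 278 for Tmem176a (7.19%), 5 for Il18r1, 1 for Ccr2 and 0 for the other 6 genes. Without them the ratio of Tmem176b between libraries was 4.62 (1.79 to 17.1), that of Ccr2 was 12.8 and that of the sum was 7.80. These 6 barcodes were set apart after the data had been seen, and 0 of them was led by Vγ6.

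The clearest division among the cells was by γ V segment. A barcode was assigned to the segment with the most UMIs, with Trgv2, Tcrg-V1 and Tcrg-V3 summed as 1 family, called the Vγ1 family here, because near-identical segments can share reads. Of the 698 TMREhi barcodes with a γ V UMI, 404 (57.9%) were led by the Vγ1 family, 93 (13.3%) by Vγ6, 73 (10.5%) by Vγ4, 38 (5.44%) by Vγ5 and 8 by Vγ7, and 82 were tied. In TMRElo, 0 of 106 were led by Vγ6, which allows a share of up to 2.83% by the limit of 3 counts (exact upper limit 3.42%), while 66 were led by the Vγ1 family and 20 by Vγ4.

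In Vγ6-led TMREhi barcodes, 84.9% held at least 1 of the 10 genes, against 38.1% in the Vγ1 family, 27.4% in Vγ4, 21.1% in Vγ5 and 4.85% in the Rag1-positive background. The summed level was 2573 CPM in Vγ6, 281 CPM in Vγ5, 231 CPM in Vγ4 and 212 CPM in the Vγ1 family. The intervals of the last 3 overlapped (188 to 404, 173 to 304 and 195 to 229 CPM), and that of Vγ6 (2392 to 2764) lay clear of them. The 82 tied barcodes stood between, at 691 CPM (588 to 807), and 34.1% held at least 1 of the genes. The 162 TMREhi barcodes with neither a Rag1 nor a γ V UMI stood at 403 CPM (334 to 481), with 14.2%. Among these 162, 1 barcode gave 28 of the 121 UMIs. Vγ6 stood 12.2-fold (10.9 to 13.6) above the Vγ1 family, 11.1-fold (8.39 to 15.0) above Vγ4 and 9.15-fold (6.32 to 13.8) above Vγ5. Vγ6-led barcodes were shallower than those of the Vγ1 family (median 1917 against 3594.5 UMIs). At 1000 UMIs each, 78.6% of 84 Vγ6-led and 19.7% of 390 Vγ1 family-led barcodes held at least 1 of the genes.

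Among the cytokines, Il17a was found in 7 of 93 Vγ6-led barcodes (7.53%, 21 UMIs, 72.2 CPM) and 3 of 404 Vγ1 family-led ones (0.743%, 7 UMIs, 2.56 CPM), a ratio of 28.2 (11.6 to 78.7). A single Vγ6-led barcode gave 9 of those 21 UMIs. At 1000 UMIs per barcode the log2 ratio of 4.82 was 1.22. That value came from 1 UMI in Vγ6 and 2 in the Vγ1 family, too few to measure the contrast. Neither Vγ4 nor Vγ5 had an Il17a UMI. Their floors of 13.4 and 29.1 CPM lie above the Vγ1 family level, so a difference from that family was not detectable. Il17f had 3 UMIs in Vγ6 and 6 in the Vγ1 family, and its ratio of 4.71 had an interval from 0.76 to 22.0.

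Il23r was the cytokine receptor found in the largest share of Vγ6-led barcodes. It was present in 51 of 93 Vγ6-led barcodes (54.8%, 323 CPM), in 5.20% of the Vγ1 family (10.2 CPM), 5.48% of Vγ4 (35.6 CPM) and 10.5% of Vγ5 (38.8 CPM), a ratio of 31.6 (20.5 to 50.1) over the Vγ1 family. None of the 165 background barcodes held it, which allows up to 1.82% by the limit of 3 counts (exact upper limit 2.21%). Il1r1 was in 37.6% of Vγ6-led barcodes (182 CPM) against 3.96% of the Vγ1 family (6.94 CPM), a ratio of 26.3 (15.3 to 47.0). Il18r1, not distinguishable between the sorted libraries, was in 46.2% of Vγ6 (217 CPM) and 6.93% of the Vγ1 family (17.2 CPM), a ratio of 12.6 (8.51 to 18.8). Il17re was in 22.6% of Vγ6 (96.3 CPM) and 4.21% of the Vγ1 family (9.13 CPM), a ratio of 10.5 (5.93 to 18.9).

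Ccr6 had low counts, with 17 UMIs in 11 Vγ6-led barcodes (11.8%) and 5 UMIs in 5 of the Vγ1 family (1.24%), a ratio of 32.0 (11.3 to 111). Over Vγ5, with 3 UMIs, its ratio of 2.01 had an interval from 0.58 to 10.7, so these were not distinguishable. Ccr2 was found in the largest share of Vγ6-led barcodes among the 10 genes. It was in 65.6% of Vγ6-led barcodes (612 CPM), 18.3% of the Vγ1 family (72.7 CPM), 16.4% of Vγ4 (93.5 CPM) and 1.21% of the background, and its ratio of 8.42 (6.84 to 10.4) was the lowest among the 9 genes that could be called.

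Tmem176a was in 48.4% of Vγ6 (433 CPM) and 13.4% of the Vγ1 family (33.6 CPM), a ratio of 12.9 (9.78 to 17.1). Tmem176b was in 55.9% (568 CPM) and 18.8% (55.2 CPM), a ratio of 10.3 (8.20 to 12.9). In Vγ4 both stood at 22.3 CPM, from 5 UMIs each. The background shares were 1.82% for Tmem176a and 2.42% for Tmem176b. Apart from these and Ccr2, none of the genes had a UMI there.

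By the 2-fold rule, 9 of the 9 genes tested were higher in Vγ6 than in the Vγ1 family, with Il17f too sparse to test, beside a background of 13.2% of 9902 genes higher and 12.4% lower. The genes' median log2 ratio was 3.69, and that of all genes 0.03. The contrast was smaller in barcodes with under 15% of UMIs from ribosomal protein genes. There the log2 ratio of the sum was 2.93 in place of 3.60. Il17a (21 against 7 UMIs) and Ccr6 (17 against 5) passed the filter of at least 10 UMIs only through Vγ6. Macrophage and monocyte markers in Vγ6-led barcodes came to 4 UMIs, all of Fcgr3, and the other 7 of that list were at 0. Of 8 markers of lymphoid tissue inducer cells, innate cells that share the IL-23 receptor with this lineage, 7 were detected in Vγ6 (1520 CPM, against 453 CPM in all TMREhi barcodes), with Ltb leading and Tnfrsf11a at 0. Their part in the result was not tested.

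**Figure D2:**
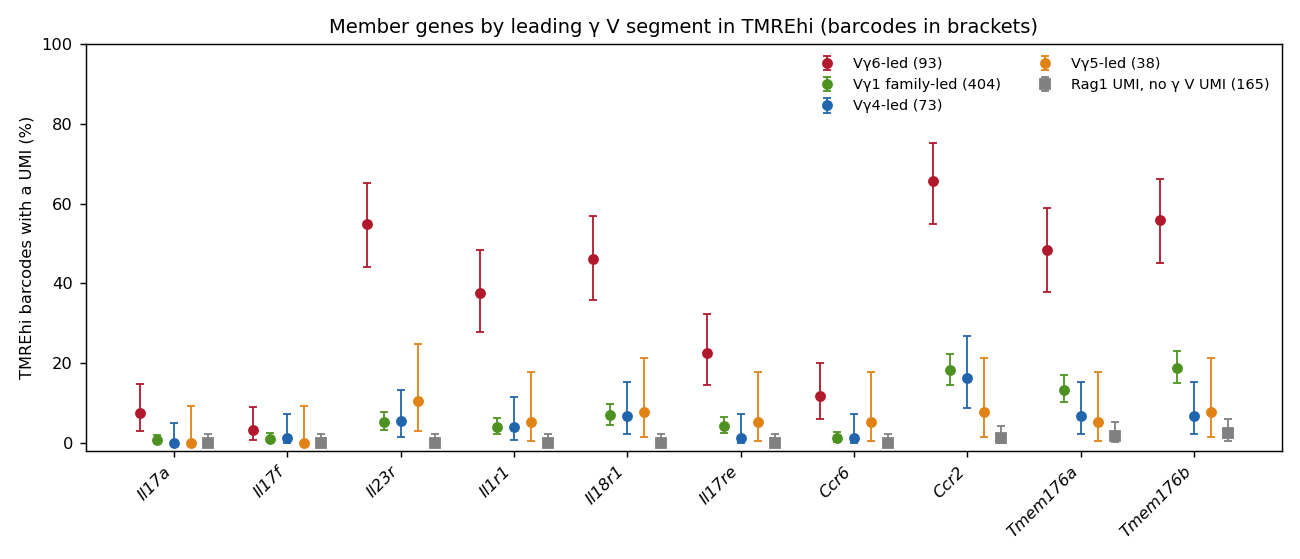
Percent of TMREhi barcodes with a UMI of each of the 10 genes, by leading γ V segment (Vγ6 red, Vγ1 family green, Vγ4 blue, Vγ5 orange), with Rag1-positive barcodes that lack a γ V UMI as grey squares. Points are shares and bars exact 95% intervals for counting error; Il23r was in 54.8% of Vγ6-led barcodes and in 5.20% of the Vγ1 family.

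Since TMRElo held no Vγ6-led barcode, the libraries were also compared within the Vγ1 family, 404 against 66 barcodes. The sum was 212 CPM (579 UMIs) in TMREhi and 47.1 CPM (6 UMIs) in TMRElo, a ratio of 4.49 (2.05 to 12.3). Ccr2 had 199 UMIs against 1, a ratio of 9.27 (1.64 to 368), and Tmem176a 92 against 0, at least 1.43-fold higher. Tmem176b (151 against 3 UMIs, 2.34, interval 0.79 to 11.5) and Il18r1 (47 against 2 UMIs, 1.09, interval 0.29 to 9.30) were not distinguishable. Il17a, Il17f, Il23r, Il1r1, Il17re and Ccr6 lay under the TMRElo floor and could not be compared, Il23r with 28 UMIs against 0. Within Vγ4 the sum was 52 UMIs against 1, with an interval of the ratio from 0.84 to 196.

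Maf UMIs gave another division of the cells, which overlapped only in part with the V segments. Of the Maf-positive TMREhi barcodes, 131 were led by the Vγ1 family and 64 by Vγ6. In TMREhi, 283 barcodes (27.6%) held a Maf UMI, and 64 of the 93 Vγ6-led ones did (68.8%), against 32.4% of the Vγ1 family, 35.6% of Vγ4 and 18.4% of Vγ5. In TMRElo 8 barcodes did (6.02%), and both TMRElo Ccr2 UMIs lay in these 8. Over all TMREhi barcodes the 10 genes summed to 854 CPM where Maf was present and 162 CPM where it was absent, a ratio of 5.27 (4.72 to 5.88). At least 1 of the genes was found in 64.7% and 18.7% of barcodes. Maf-positive barcodes were deeper (median 2834 against 1903 UMIs), and at 1000 UMIs each the shares were 50.4% and 11.6%.

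Each of the 10 genes was higher where Maf was present. Il17a had 28 of its 32 UMIs in Maf-positive barcodes, a ratio of 13.0 (4.54 to 50.9), and Il17f 10 of 13, a ratio of 6.17 (1.59 to 34.9). The receptors stood at 87.5 against 12.7 CPM for Il23r (6.88, 4.70 to 10.3), 52.5 against 6.18 for Il1r1 (8.50), 37.0 against 4.73 for Il17re (7.84) and 65.3 against 16.4 for Il18r1 (3.99). Ccr2 stood at 235 against 52.0 CPM (4.52) and Ccr6 at 14.8 against 2.91 (5.09). Tmem176b stood at 207 against 33.1 CPM (6.27) and Tmem176a at 129 against 31.6 (4.07). The macrophage and monocyte markers were higher with Maf too, at 286 against 108 CPM. Among barcodes with a γ V UMI these markers were at 21.0 CPM with Maf and 96.4 CPM without, while Tmem176b was at 186 against 35.0 CPM (5.31) and Tmem176a at 122 against 31.8 (3.84). By the 2-fold rule 10 of 10 were higher, beside a background of 3.87% of 10535 genes higher and 8.76% lower. Their median log2 ratio was 2.64, beside -0.18 for all genes. Among barcodes with a γ V UMI 10 of 10 were again higher, with a background of 3.46% higher and 6.29% lower. In both counts Il17a, Il17f and Ccr6 had under 10 UMIs where Maf was absent. They passed the filter of at least 10 UMIs only through the Maf-positive class. With at most 10% mitochondrial UMIs the log2 ratio of the sum was 3.11 in place of 2.40, and that of Il23r 5.88 in place of 2.78.

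Within Vγ6 the ratio by Maf differed between the genes. Il23r was at 321 CPM in the 64 Maf-positive barcodes and 332 CPM in the 29 others, a ratio of 0.97 (0.58 to 1.67). A UMI of it was in 41 of the 64 (64.1%) and 10 of the 29 (34.5%), and at 1000 UMIs per barcode it was at 661 against 440 CPM, in 42.4% of 59 and 28.0% of 25. Ccr6 was at 56.4 and 66.4 CPM, a ratio of 0.85 (0.26 to 3.57). Tmem176b was at 690 CPM (159 UMIs) and 99.7 CPM (6 UMIs), a ratio of 6.92 (3.11 to 19.1), whose interval lay above that of Il23r. Ccr2 was at 677 and 365 CPM (1.85, 1.18 to 3.04), and Il1r1 at 208 and 83.1 CPM (2.51, from just above 1 to 8.07). All 21 Vγ6 UMIs of Il17a lay in Maf-positive barcodes, at least 1.83-fold higher with a lower 95% limit of 1.36. For Tmem176a (1.67, 0.999 to 2.98), Il18r1 (1.38), Il17re (1.20) and Il17f (0.52) the intervals included 1. The sum was 1.91-fold higher (1.53 to 2.41). The 64 barcodes held 230543 UMIs and the 29 held 60198, and in shallow barcodes a Maf UMI can be missed. At 1000 UMIs per barcode Tmem176b was at 695 against 120 CPM, from 41 and 3 UMIs. The part of depth and of ribosomal protein share in these ratios was not tested.

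In the Vγ1 family, 131 Maf-positive and 273 Maf-negative barcodes differed by 2.90-fold (2.44 to 3.45) in the sum. Il17re had 23 UMIs against 2, a ratio of 19.8 (4.90 to 174), and Il17a 7 against 0, at least 4.03-fold higher. Il23r was at 19.9 against 4.62 CPM, a ratio of 4.31 (1.82 to 11.3), and Ccr2 at 124 against 42.7 CPM, a ratio of 2.91 (2.17 to 3.94). The Maf-negative Vγ6-led barcodes, at 1495 CPM in the sum, stood above the Maf-positive Vγ1 family at 361 CPM. Whether the Maf contrast differs between the V segments was not tested.

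**Figure D3:**
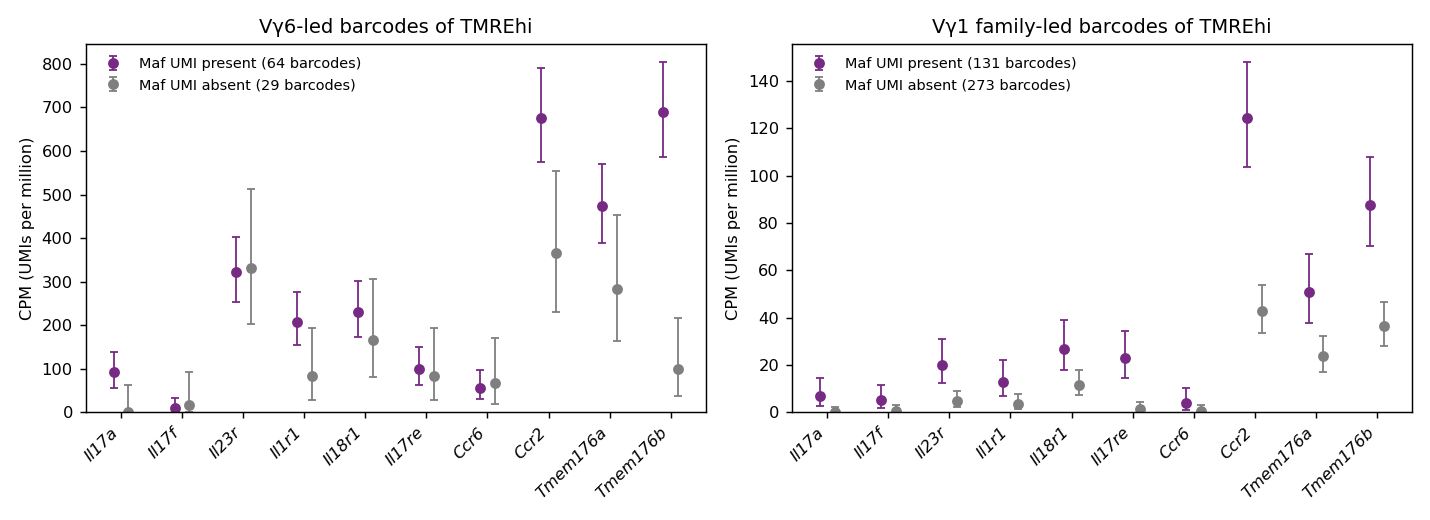
Level in CPM of each of the 10 genes in TMREhi barcodes with a Maf UMI (purple) and without (grey), for Vγ6-led barcodes (left, 64 and 29) and Vγ1 family-led barcodes (right, 131 and 273), each panel with its own axis. Points are class values and bars exact 95% intervals for counting error; within Vγ6 the intervals of Il23r overlap while Tmem176b is at 690 against 99.7 CPM.

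TMREhi barcodes fell into shallow ones with few ribosomal protein UMIs and deep ones with many, and the 10 genes were spread over them unequally. Below 15% ribosomal protein UMIs were 733 barcodes (median 1555 UMIs, 16.9% mitochondrial) and above it 292 (median 8356.5 UMIs, 3.55% mitochondrial). The low-ribosomal barcodes held 31.0% of all TMREhi UMIs, 73.9% of the Il23r UMIs and 25.3% of the Tmem176b UMIs. Among the 93 Vγ6-led barcodes, 54 low and 39 high, Il23r stood at 771 against 140 CPM, a ratio of 5.49 (3.49 to 8.83). Il18r1 (403 against 140 CPM, 2.87, 1.70 to 4.89) and Il1r1 (332 against 121 CPM, 2.74, 1.54 to 4.91) lay on the same side. The intervals of Ccr2 (1.38, 0.997 to 1.88), Tmem176a (1.10, 0.73 to 1.62), Il17re (1.59, 0.67 to 3.59) and Ccr6 (1.72, 0.55 to 4.99) spanned 1, and Tmem176b lay on the other side at 415 against 630 CPM (0.66, 0.44 to 0.96). The classes also differ in depth and mitochondrial share, and the part of these in the result was not tested.

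**Figure D4:**
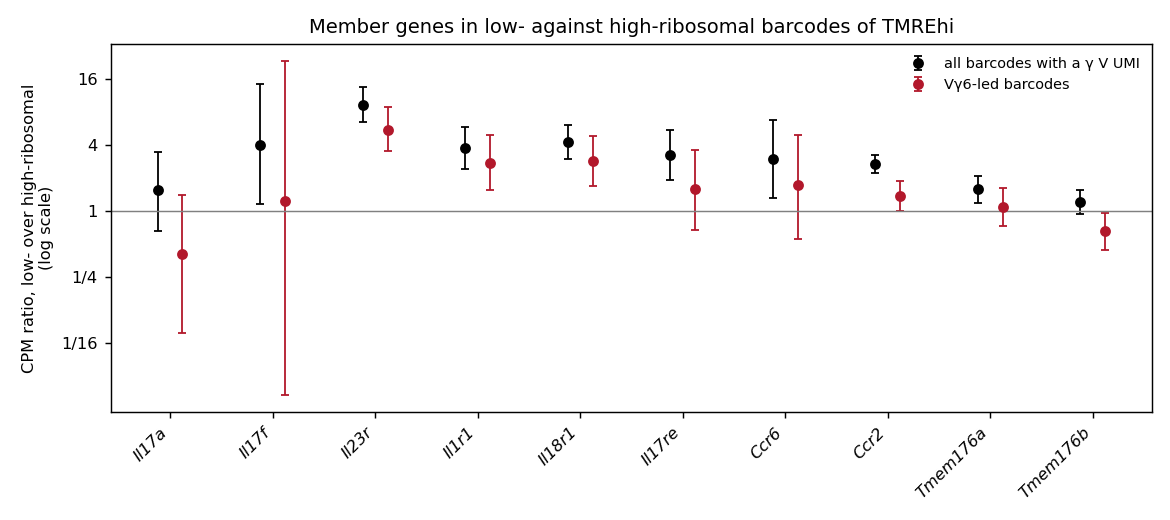
Ratio of CPM in low-ribosomal over high-ribosomal TMREhi barcodes for each of the 10 genes, on a log axis, for all barcodes with a γ V UMI (black, 425 and 273 barcodes) and for Vγ6-led barcodes (red, 54 and 39). Bars are exact 95% intervals for counting error; Il23r lies at 9.22 and 5.49, Tmem176b at 1.21 and 0.66.

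The genes were found together in the same barcodes. In TMREhi, 192 barcodes (18.7%) held at least 2 of the 10, 133 (13.0%) at least 3 and 50 (4.88%) at least 5, with 8 the highest number. Of Vγ6-led barcodes 79.6% held at least 2 and 32.3% at least 5, against 16.1% and 2.72% of the Vγ1 family. Of Vγ4-led barcodes 12.3% held at least 2, and of the Rag1-positive background 0.606%. In TMRElo, 0 of 133 held 2 or more, which allows up to 2.26% by the limit of 3 counts (exact upper limit 2.74%), and each of the 11 positive barcodes held 1 of the genes. At 1000 UMIs per barcode the TMREhi share with at least 2 was 12.2%.

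Most Il23r barcodes held Ccr2 as well. Of the 97 Il23r barcodes, 75 held Ccr2 (77.3%, and 40.5% of the 185 Ccr2 barcodes, a gene found in 18.0% of all TMREhi barcodes), 57 held Tmem176b and 48 held Il18r1 (49.5%, and 51.1% of the 94 Il18r1 barcodes). Tmem176a and Tmem176b shared 78 barcodes, 60.0% of those with the first and 49.1% of those with the second, with the uncertainty of their overlapping exons. Within Vγ6, 41 of the 51 Il23r barcodes held Ccr2 (80.4%), beside 65.6% of all Vγ6-led barcodes. Of those with Il1r1 there, 45.7% held Il18r1, beside 46.2% of all. Of 22 Ccr6 barcodes, 14 held Il23r.

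Barcodes with a cytokine UMI can be listed whole. Of the 11 with Il17a, 10 held Maf and 8 Il23r, 7 were led by Vγ6, 3 by the Vγ1 family and 1 was tied. They held 2 to 8 of the 10 genes (median 5). The Il17a UMIs per barcode were 9 in the highest, 4 in the next 3, then 3, 2, 2 and 4 barcodes of 1. Of the 11 with Il17f, 8 held Maf and 6 Il23r, 4 were led by the Vγ1 family, 3 by Vγ6 and 1 by Vγ4, and 3 were tied. Of these, 10 held 1 UMI and the other held 3. One barcode, led by Vγ6, held both cytokines, and no Il17f barcode held Ccr6.

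**Figure D5:**
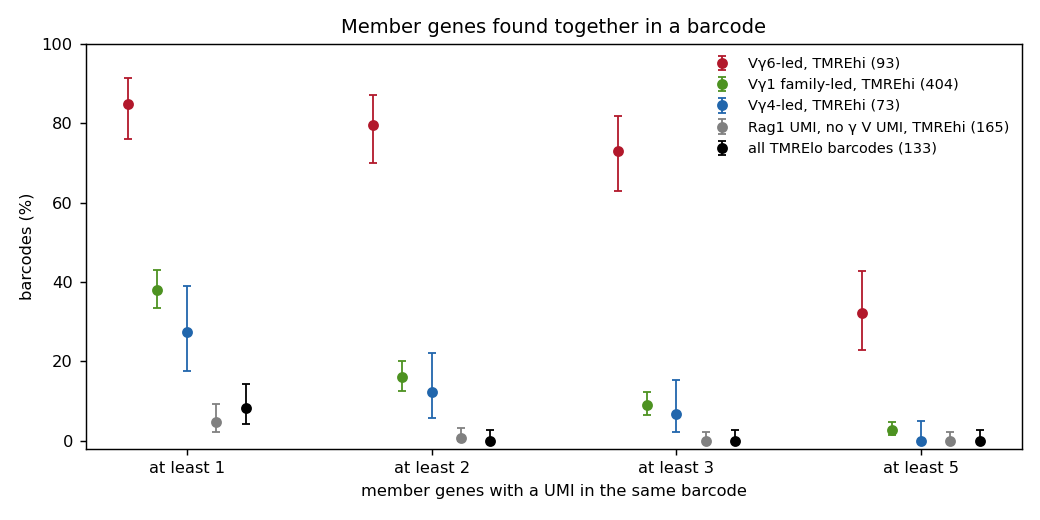
Percent of barcodes holding UMIs of at least 1, 2, 3 or 5 of the 10 genes, for TMREhi barcodes led by Vγ6 (red), the Vγ1 family (green) or Vγ4 (blue), Rag1-positive TMREhi barcodes without a γ V UMI (grey) and all TMRElo barcodes (black). Bars are exact 95% intervals for counting error; 79.6% of Vγ6-led and no TMRElo barcodes held at least 2.

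Within a V segment, barcodes rich in these genes were compared with barcodes that held none. Trdv4, the δ V segment that pairs with Vγ6 in fetal cells, was at 2403 CPM in the 74 Vγ6-led barcodes with at least 2 and at 2485 CPM in the 14 with none (0.97, 0.77 to 1.22). It was in 71 of the 74 and 9 of the 14, and 1 gene-poor barcode held 32 of the 89 UMIs there. Maf stood at 778 against 55.8 CPM, and Blk, a kinase of IL-17-producing γδ cells, at 385 against 27.9. The gene-poor barcodes were higher in Mki67, a proliferation marker (1145 against 97.3 CPM), and in Xcl1, a chemokine (670 against 4.05). They were also higher in Cd27, a receptor of interferon-γ-producing γδ cells (195 against 8.11). Each of these genes had UMIs in 5 of the 14 barcodes. The highest barcode gave 15 of the 41 Mki67 UMIs there, 13 of the 24 for Xcl1 and 3 of the 7 for Cd27. Cd24a, the gene of the sort marker, had 0 UMIs in the 74 and 1 in the 14. These classes were formed on the 10 genes' own UMIs, so the contrast is a description.

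In the Vγ1 family, Trdv4 was at 358 CPM in the 65 barcodes with at least 2 of the genes and 41.1 CPM in the 250 with none (8.71, 6.51 to 11.8). Cd44, an adhesion receptor of effector cells (31.7 against 5.31 CPM), and Maf (224 against 69.0) were higher too. The ratios of Mki67 (517 against 581 CPM, 0.89, 0.77 to 1.02) and Cd24a (147 against 143 CPM, 1.03, 0.79 to 1.34) had intervals spanning 1. The gene-rich barcodes were deeper, at a median of 5951 against 3042 UMIs, with 3.59% against 14.1% mitochondrial UMIs.

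Over the 7 TMREhi classes of V segment and Maf with at least 10 barcodes, the genes whose level most resembled that of the 10 summed were Cd163l1 (SCART1, a scavenger receptor of γδ cells; Pearson r of log2 CPM 0.956), Selenop (0.951), Ckb (0.946), Hsp90b1 (0.931) and Stk24 (0.930), out of 4490 genes with a ninth decile of 0.495. The classes share 1 library and differ in depth, so these values describe it alone. Cd163l1 ranged from 121 CPM in the Maf-negative Vγ1 family to 2193 CPM in Maf-negative Vγ6.

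Other genes of the pathway were counted by the same 2-fold rule, Vγ6 over the Vγ1 family in TMREhi, beside the background of 13.2% of genes higher and 12.4% lower. Of 15 cytokine genes 5 were testable and 5 were higher. Among them were Csf2, which encodes GM-CSF (37.7-fold, 16 against 4 UMIs), Tnf (12.2-fold), lymphotoxin α Lta (10.9-fold) and lymphotoxin β Ltb (984 against 177 CPM, 5.56-fold). Csf2 passed the filter of at least 10 UMIs only through Vγ6. Of 11 testable receptor partners and signalling genes of IL-23, IL-1 and IL-18, 3 were higher and 0 lower. Il12rb1, the second chain of the IL-23 receptor, was 6.66-fold and Il18rap, the second chain of the IL-18 receptor, 4.10-fold higher, while the ratio was 0.955 for Stat3, 0.986 for Traf6 and 1.05 for Irak1. Of the IL-17 receptor family and adaptor, 1 of 4 was higher: the adaptor Traf3ip2 (3.14-fold), beside Il17ra, the common chain (0.98).

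Of 12 testable homing genes 4 were higher and 4 lower. Cxcr6, a receptor for CXCL16, stood at 970 against 69.0 CPM and Itgae, the αE integrin, at 255 against 56.6. Of 13 testable other surface genes 6 were higher and 4 lower, with Il7r, the IL-7 receptor, at 1166 against 189 CPM and Cd27 at 31.0 against 214. Of 17 testable lineage factors 6 were higher and 6 lower, the lower ones including Id3 (41.3 against 416 CPM), Sox4 (31.0 against 199) and Tcf7 (131 against 417). Of the MS4A relatives of the TMEM176 proteins, 1 of the 2 testable was lower (Ms4a6b, 41.3 against 148 CPM) and 0 were higher, unlike Tmem176a and Tmem176b.

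The median log2 ratios were 3.61 for the testable cytokine genes, 1.06 for the surface genes, 0.44 for the IL-17 receptor family, 0.41 for the receptor partners, 0.34 for the homing genes, 0.15 for the lineage factors and -1.29 for the MS4A relatives, beside 0.03 for all genes.

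Between the sorted libraries, read against the 10.1% of genes higher and 21.6% lower, the lists gave other counts. Of the lineage factors 6 of 17 were higher in TMREhi and 1 was lower, among the higher ones Runx1 at 192 against 72.9 CPM. Of the cytokine genes 0 of 5 were higher in TMREhi and 2 were lower, with Ltb at 256 against 593 CPM. Of the receptor partners 0 of 12 were higher and 5 lower, with Jak2 at 46.3 against 141 CPM. Of the homing genes 1 of 12 was higher and 4 were lower, among them S1pr1, which directs exit from the thymus, at 46.7 against 388 CPM. The medians were 0.38 for the lineage factors, -0.53 for the homing genes, -0.85 for the receptor partners and -1.08 for the cytokine genes, beside -0.35 for all genes. Where Maf was present, beside the background of 3.87% higher and 8.76% lower, 4 of 5 cytokine genes were higher and 0 lower, 1 of 12 homing genes was higher and 1 lower, and Csf2 stood at 11.4 against 1.09 CPM, from 17 and 3 UMIs.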

How the data were processed

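Single-cell 5′ RNA libraries of 2 sorted fractions were analysed from the UMI counts per gene and barcode that the authors deposited, raw whole numbers in 1202 TMREhi and 196 TMRElo barcodes. The matrices came from Cell Ranger 3.0.2 per the file headers (3.0 per the submitters' processing notes), on mm10. How cells were called, which annotation was used and whether strand counted is not given in the sources used here.

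Members, gene lists and comparisons were chosen with earlier results of these data known. Barcodes with at least 500 genes were kept, with no limit on mitochondrial UMIs because at most 10% left 34 TMRElo barcodes. UMIs were summed per library or class and scaled to CPM. A 0 was set to 3 UMIs, giving "at least" ratios, a convention and not a 95% limit. Where the other value was also at or under that floor, no ratio was given. No test was made, since barcodes are not replicates. Counts of genes used a 2-fold rule with at least 10 UMIs summed over the classes compared, so a gene can pass through 1 class alone. A barcode was led by its γ V segment with the most UMIs, and Maf-positive with at least 1 UMI. Shares were repeated on barcodes thinned to 1000 or 2000 UMIs. Scrublet (scanpy 1.11.5) called 5 of 1025 TMREhi barcodes doublets, a share of 0.488%, and 18 of 133 TMRElo barcodes. All were kept. In TMREhi it may have missed doublets.

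All 10 genes were named. The most similar genes were the 5 with the highest correlation of log2(CPM + 10) among genes with at least 100 UMIs, without mitochondrial, ribosomal protein and T cell receptor genes. From each list up to 6 genes with at least 20 UMIs could be named, and the rest are counts. Some genes that this rule names are not reported here. The computation was tested on simulated counts. The software was scipy 1.17.1 for the intervals, pandas 2.3.3 and numpy 2.4.6 for the sums and matplotlib 3.10.9 for the plots, under Python 3.11.15. Alternatives covered filters, doublets, Rag1-positive and macrophage-marked barcodes, thinning, scaling and class definitions.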

Additional observations from a re-analysis of the deposited data

How the results depend on the processing

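Values here are log2 ratios of the 10 genes summed unless named otherwise. No alternative reversed a summed comparison. Between libraries (3.01), 12 of 13 alternatives stayed within the counting interval, and with at least 1000 genes and at most 5% mitochondrial UMIs the value was 4.31, from 1 TMRElo UMI. For Vγ6 over the Vγ1 family (3.60) the value was 3.77 at most 10% mitochondrial, 2.93 in low-ribosomal barcodes, 3.06 thinned to 1000 UMIs and 3.16 thinned to 2000. For Maf present over absent (2.40) it was 3.11 at most 10% mitochondrial, 3.32 at least 1000 genes and at most 5%, 2.94 in high-ribosomal barcodes, 2.20 without Rag1-positive ones, 3.03 thinned to 2000, 2.20 with a γ V UMI, 2.69 for at least 2 Maf UMIs, 0.93 in Vγ6 and 1.54 in the other V segments. The share of TMREhi barcodes with at least 2 of the genes (18.7%) was 27.1% at most 10% mitochondrial, 12.2% thinned to 1000 and 12.9% to 2000. The cause of these shifts was not tested, except that thinning and the filters leave fewer UMIs. Of 352 single-gene values 284 stayed within the interval, 65 moved and 3 reversed, all in Maf within Vγ6: Il17f at -0.94, Il23r at -0.050 and Ccr6 at -0.24. Another 19 gave no value, and Il17a, Il17f and Ccr6 gave none between the libraries, all for being under the floor. The TMRElo depth limits every comparison of libraries below 13.7 CPM. No paired analysis was possible because each group has 1 library and the labels carry no replicate numbers.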
